A study of Mus musculus with 6 samples.

Results

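The moving core of a motile cilium, the axoneme, was followed here through 162 of the 47643 genes measured in sorted ependymal cells of the mouse brain. The 162 were all genes whose symbol began with Cfap, Rsph, Drc, Spag, Spef, Tekt, Efhc, Hydin, Armc, Lrrc or Iqc, pseudogenes left out. A name is not a function. By textbook knowledge 66 of the 162 encode parts of the axoneme or of the cilium's base, or help to build them. The other 96 were assigned no such role here and are mostly leucine-rich repeat (Lrrc) and armadillo repeat (Armc) genes of other or unknown roles. A role in cilia is not excluded for them.

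Ependymal cells line the brain ventricles and move cerebrospinal fluid with tufts of motile cilia. In the axoneme, a ring of microtubule doublets surrounds a central pair of microtubules, and dynein arms on the doublets slide them past each other. Radial spokes reach from the doublets to the central apparatus, the nexin-dynein regulatory complex links neighbouring doublets, and inner proteins such as the tektins line the doublet wall from within. The data set compared Ccn1 conditional knockout (cKO) mice with control mice, 3 samples each, 6 in all. Ccn1 encodes a secreted matricellular protein and is listed in the files under its older symbol, Cyr61. Tamoxifen was given to both groups, ependymal cells of both then carried GFP, and in cKO mice recombination also removed Ccn1. Cells were sorted by GFP from the adult ventricular-subventricular zone 2 days later, with the gate set by hand against wild-type cells. No source used here gives the Cre driver, the deleted exons, the exact age or the sex. The labels describe the RNA both as cytoplasmic and as total. They do not say whether samples came from separate mice, so p-values below measure the spread between samples, which may be partly technical.

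Levels between genes are given in TPM, which corrects for transcript length, and genotype differences come from estimated counts, shown as CPM, which are counts brought to a common library size with TMM factors. Libraries held 13401499 to 15689579 estimated counts, and between 106 and 118 of the 162 genes had a count in a given library. All 10 ependymal markers were present and summed to 25387 ± 426 TPM in cKO and 26179 ± 2630 TPM in control libraries (SD, n = 3 each). Markers of the choroid plexus, the other multiciliated epithelium of the ventricle, summed to 754 ± 318 TPM in cKO and 662 ± 93.4 TPM in control libraries, with 1 of the 8, Aqp1, at 0 in all 6. The sum hides markers that went opposite ways. Ttr stood at 290, 520 and 0.251 TPM in cKO and 5.29, 147 and 148 TPM in control libraries. Folr1 had 364 ± 62.5 TPM in cKO and 495 ± 75 TPM in control libraries. Markers of astrocytes and neural stem cells came to 626 ± 92.7 TPM in cKO and 752 ± 236 TPM in control libraries. Their part in the levels below was not tested. Of 6 male germ cell markers, 5 were at 0 in every library. Ccn1 stood at 29.8, 17.7 and 38.5 CPM in cKO libraries, against 110.2, 149 and 142 CPM in control libraries, which did not overlap. Its log2 difference was -2.22 ± 0.38 (SE, 95% interval -3.10 to -1.34), with an unadjusted edgeR quasi-likelihood p of 0.000415, and an adjusted p of 0.99999 over all genes. DESeq2 gave it an adjusted p of 4.15e-06, and the other methods and settings gave 0.273 to 1.

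Genes with an axonemal or ciliary role were among the stronger transcripts of these cells. Of the 66, 31 (47%) reached at least 50 TPM on the mean of the 6 libraries, against 9 of the 96 other genes (9.38%) and 2586 of all 47643 genes (5.43%). Their median level was 35.9 TPM, against 1.42 TPM for the other 96. Of the 66, 61 were above 0 TPM in every library, while 30 of the 96 others were at 0 throughout. Among all 47643 genes, 27959 were at 0 counts throughout, and these lower the share of 5.43%. As one pool, all 162 genes took 1.54% to 1.69% of a library's counts. Their levels summed to 13476, 13396 and 12837 TPM in cKO libraries (mean 13237 ± 348) and 12003, 13243 and 13323 TPM in control libraries (mean 12856 ± 740, SD, n = 3 each). Control 1 was below all 3 cKO libraries, and the other control libraries lay within the cKO range.

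The tektins and microtubule inner proteins held the highest levels, with a median of 124 TPM over 15 genes, followed by the radial spoke genes with 89.8 TPM over 11. The nexin-dynein regulatory complex followed at 68.9 TPM over 6 genes, the dynein docking, tether and regulation genes at 24.6 TPM over 7, and the ciliary base genes at 20.1 TPM over 7. The central apparatus genes had a median of 19.5 TPM over 14 genes, and the 3 dynein preassembly genes a median of 8.77 TPM. These medians describe genes of unlike length. Among tested genes with a role, the 28 whose longest annotated transcript is under 2500 bases had a median of 107 TPM, the 23 from 2500 to 5000 bases 31.8 TPM, and the 13 of 5000 bases or more 17.1 TPM. Over all genes tested the same classes had medians of 33.3, 9.28 and 3.29 TPM. The longest annotated transcript need not be the one that carried the reads. For Cfap45 it has 3426 bases in 1 exon, which places this gene in the middle class. Across genes, the Spearman correlation of TPM with transcript length was -0.496 over the 64 with a role and -0.491 over 11551 genes, and these genes share the same 6 libraries. Many of the central apparatus genes are long, and what length contributes to their place in this order was not tested.

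**Figure D1:**
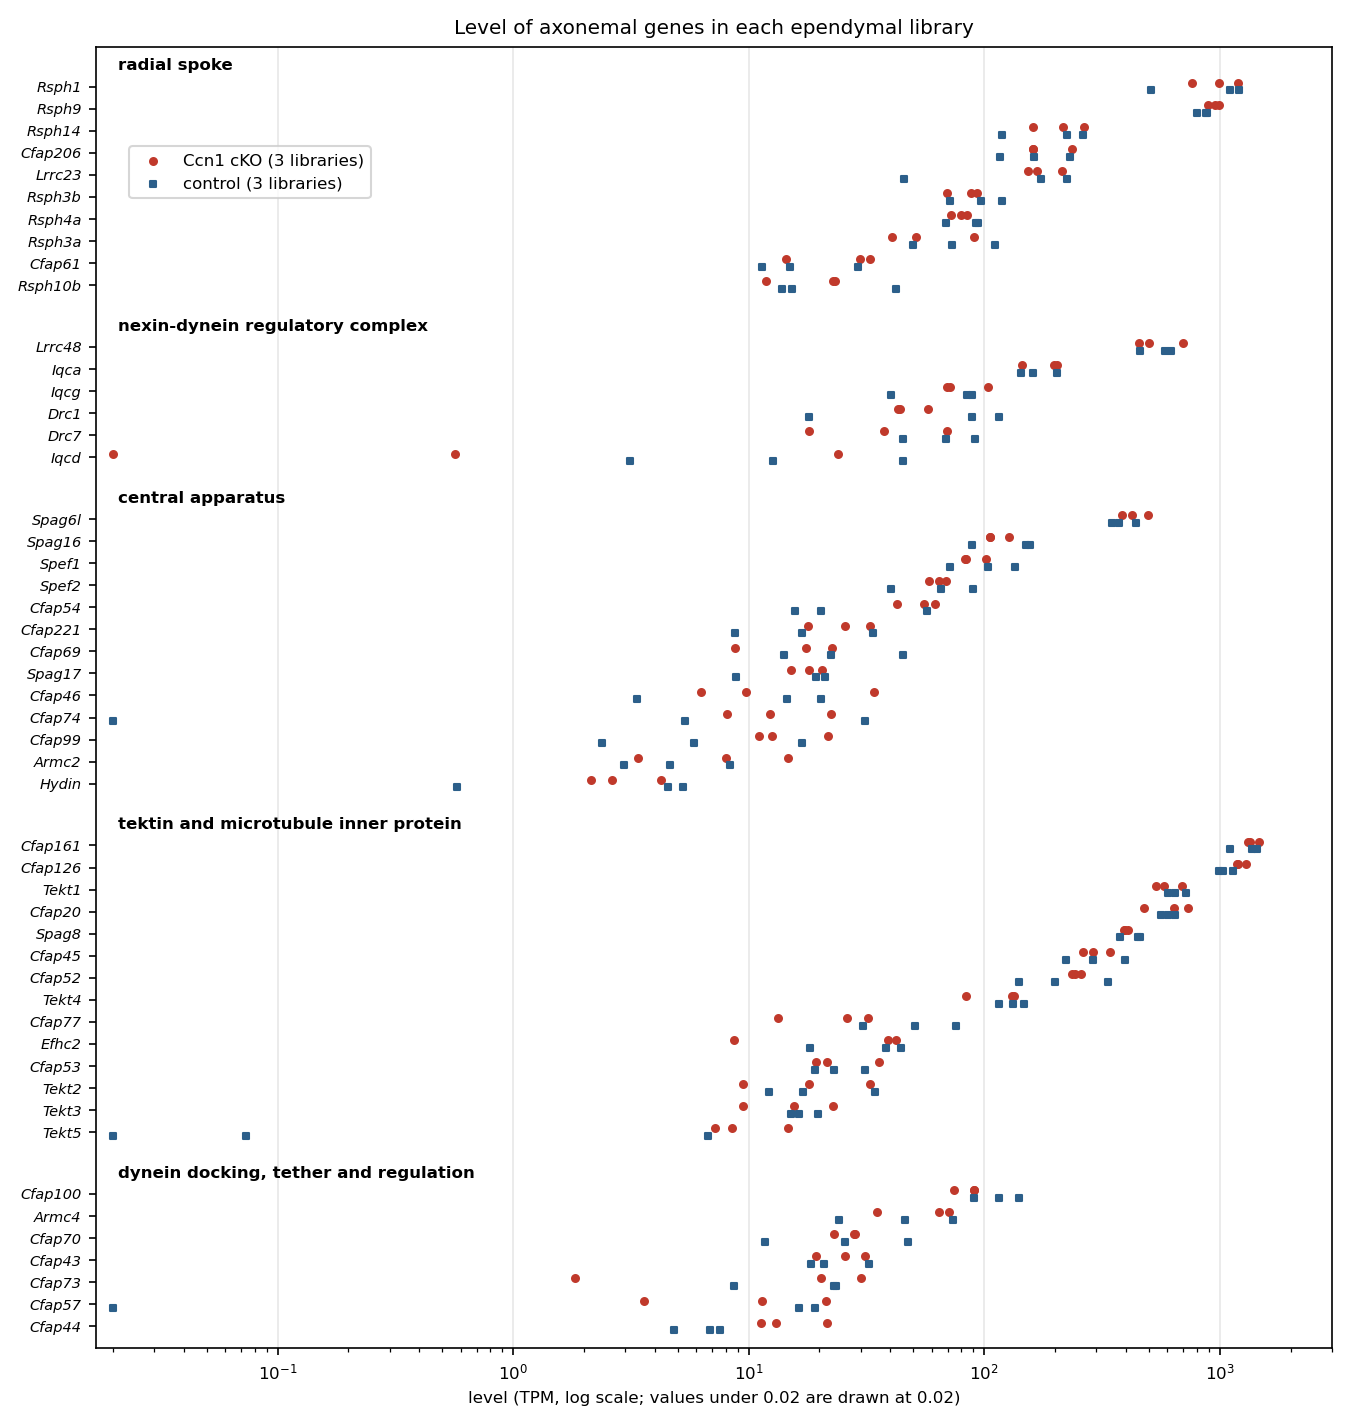
Level of axonemal genes in each library, in TPM on a log axis, with the 3 cKO libraries as red circles and the 3 control libraries as blue squares; values under 0.02 are drawn at 0.02. Circles and squares are intermixed for nearly all genes, and the genes drawn span from 3.23 TPM (Hydin) to 1344 TPM (Cfap161) on the mean.

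Of the 162 genes, 114 passed the filter on low counts and were tested, 64 of them with a role. No gene passed an adjusted p of 0.05 in the edgeR quasi-likelihood test, 0 of the 114 and 0 of all 11574 genes tested (0%), and limma-voom gave 0 of 114, again with 0% of all genes. At an unadjusted edgeR p under 0.05 there were 5 of the 114 (4.39%), against 2.75% of all genes tested. All 5 were higher in cKO libraries, a direction in which 1.43% of all genes passed, and none of the 114 was lower, against 1.31% of all genes. They were Cfap44, Lrrc57, Lrrc43, Lrrc59 and Lrrc8d, and only Cfap44 has an axonemal role (1 of 64, 1.56%). Lrrc8d, at 0 counts in every control library, entered the test only through the cKO libraries. It was also the 1 gene of the 114 that DESeq2 called, against 1.63% of all genes. Having entered that way it had to differ, so neither its place among the 5 nor that call is a result. The 4.39% includes it. For none of the other 4 did the unadjusted edgeR p stay under 0.05 without each library in turn: it reached 0.102 for Cfap44 and 0.186 for Lrrc57, both without cKO 2, 0.11 for Lrrc43, without cKO 3 or control 3, and 0.148 for Lrrc59, without cKO 1.

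The groups of libraries did not overlap for 14 of the 114 genes (12.3%), against 9.62% of all genes tested. Of these, 8 had every cKO library above every control library, where all genes gave 4.99%, and 6 had every cKO library below, where all genes gave 4.62%. Among the 64 with a role there were 3 (4.69%), with Cfap36 and Cfap44 above and Cfap100 below. Lrrc8d, among the 8 above, and Lrrc29, among the 6 below, entered the test only through the group where they were high. Fitted log2 differences were above 0 for 61 and below 0 for 53 of the 114, and 50.3% of all genes were above 0. The median log2 difference was 0.0407 over the 64 genes with a role and 0.00441 over all genes tested. The interval of the difference tells how large a change these libraries could show. For 24 of the 64 genes with a role (37.5%) the 95% interval lay within -1 to 1 on the log2 scale, against 13.7% of all genes. For the rest, a difference of 2-fold in at least 1 direction lies inside the interval. The shares of 37.5% and 13.7% were not matched for depth. A mean of at least 800 counts was reached by 39 of the 64, against 3186 of all 11574 genes tested. In bulk RNA, fewer cells of a type and less RNA per cell cannot be told apart.

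**Figure D2:**
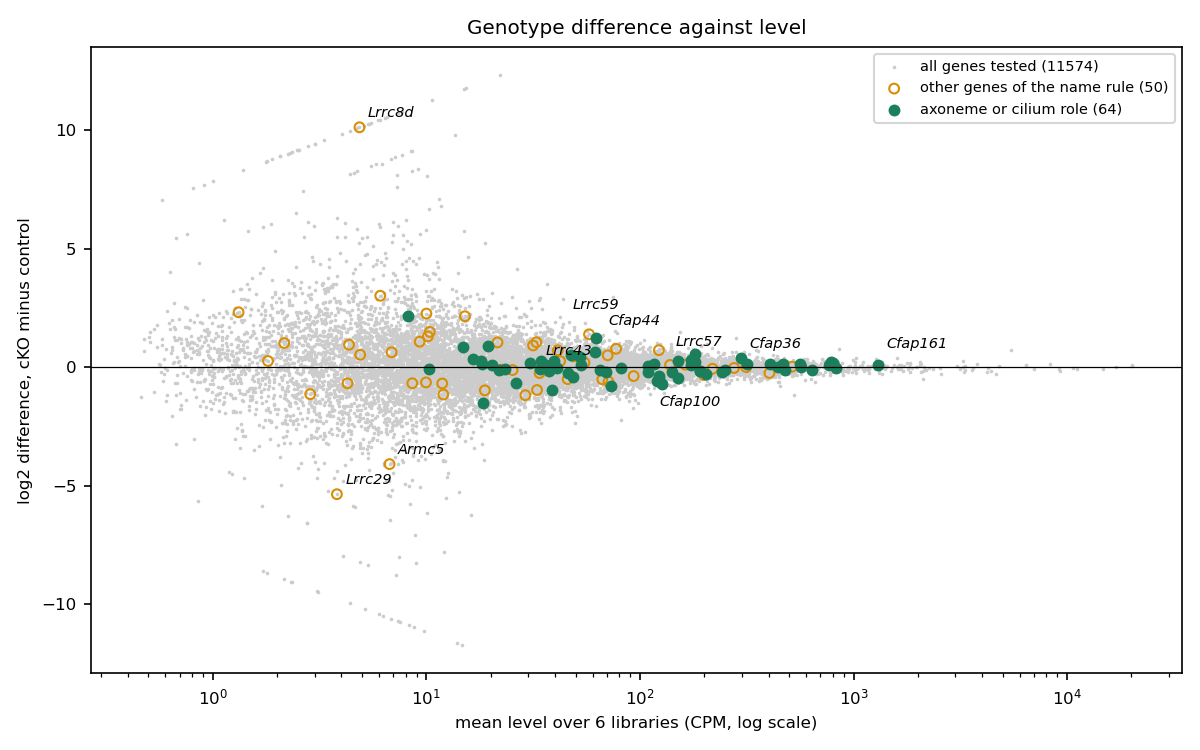
Log2 difference, cKO minus control, against the mean CPM of the 6 libraries on a log axis, for all 11574 genes tested (grey), the 64 genes with an axonemal or ciliary role (filled green) and the 50 other genes of the same names (open orange). The most abundant axonemal genes, such as Cfap161, lie near 0, and the widest values belong to genes under about 10 CPM such as Lrrc8d, Armc5 and Lrrc29.

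Of the radial spoke genes, a pair stood far above the rest. Rsph1 and Rsph9, both of the spoke head, had 963 and 899 TPM on the mean, while Rsph4a, another spoke head protein, had 82.2 TPM. Rsph9 (GRCm38 chr17:46122035-46144216, minus strand) was steady, at 989, 889 and 955 TPM in cKO libraries, against 887, 802 and 875 TPM in control libraries. Its log2 difference was 0.14 ± 0.16 (SE, 95% interval -0.23 to 0.50). Rsph1 (chr17:31255019-31277383, minus strand) varied more, with 989, 1200.4 and 765 TPM in cKO libraries and 510.1, 1102 and 1214 TPM in control libraries. Control 1 was the lowest of the 6, the remaining control libraries were among the highest, and the groups overlapped. The log2 difference of Rsph1 was 0.08 ± 0.28 (SE, 95% interval -0.57 to 0.74), and it turned negative without control 1 (-0.17) or without cKO 2 (-0.05). Control 1 was also the lowest library for Lrrc23, another spoke protein, at 183, 224 and 169 CPM in cKO libraries and 54.1, 232 and 179 CPM in control libraries. As a group the spoke genes summed to 2834, 2900.3 and 2595 TPM in cKO libraries (mean 2776 ± 161) and 2091, 2894 and 2872 TPM in control libraries (mean 2619 ± 458, SD, n = 3 each), with control 1 alone below the other 5 libraries.

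The remaining spoke genes were lower. Rsph14 had 208 TPM, Cfap206, a protein of the spoke base, 178 TPM, and Cfap61, of the calmodulin- and spoke-associated complex, 22.1 TPM. Rsph3a and Rsph3b encode closely related stalk proteins and lie apart on chromosome 17. Of their distinct stretches of 31 bases, 59.4% of those in Rsph3a transcripts and 58.5% of those in Rsph3b transcripts are shared, so the split between the pair is uncertain. Rsph3a stood at 106 ± 46.2 CPM in cKO and 139 ± 66.2 CPM in control libraries, and Rsph3b at 101 ± 13.6 CPM in cKO and 117 ± 28.98 CPM in control libraries (SD, n = 3 each). Neither passed the test, and their groups overlapped. Rsph6a, the counterpart of Rsph4a known from mouse sperm, had 0 counts in all 6 libraries, which allows up to 0.192 to 0.223 CPM per library at 3 counts (counting error only). It shares no stretch of 31 bases with Rsph4a.

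**Figure D3:**
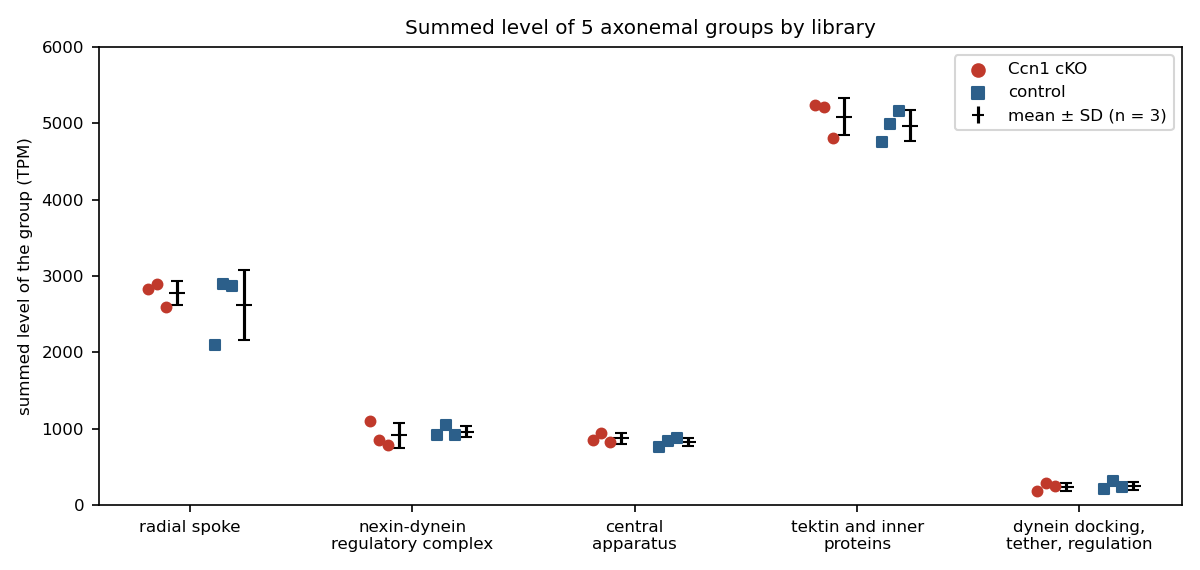
Summed level of 5 axonemal groups in each library, in TPM from 0, with cKO libraries (red circles) left of control libraries (blue squares) and the mean ± SD of each 3. The groups overlap in every class, and control 1 lies apart from the other 5 libraries for the radial spokes at 2091 TPM.

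Of the nexin-dynein regulatory complex, Lrrc48 (the older symbol of Drc3) was the strongest at 553 TPM, with 1046, 719 and 692 CPM in cKO libraries and 1016, 835 and 659 CPM in control libraries. Its log2 difference was -0.03 ± 0.22 (SE, 95% interval -0.55 to 0.49). Iqca (also known as Drc11) had 176 TPM, Iqcg (Drc9) 76.5 TPM, Drc1, a scaffold subunit, 61.3 TPM and Drc7 55.01 TPM. Drc7 had the smallest p of the complex and was at 162, 84.3 and 42.8 CPM in cKO libraries and 114, 152 and 204 CPM in control libraries, with a log2 difference of -0.70 ± 0.48 (SE, 95% interval -1.81 to 0.41) and overlapping groups. That difference depended on single libraries, at -1.30 without cKO 1 and -0.35 without cKO 3. Drc1 was at 116, 83.5 and 90.2 CPM in cKO libraries and 39.5, 168 and 222 CPM in control libraries, with both the lowest and the highest library in the control group. Iqcd (Drc10) was near 0 in some libraries of both groups, at 0.725, 28.3 and 0 CPM in cKO libraries and 62.9, 15.3 and 3.83 CPM in control libraries. Most of its summed count came from cKO 2, control 1 and control 2.

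Central apparatus genes were spread widely in level. Spag6l, a scaffold armadillo-repeat protein, led with 412 TPM, and 828, 932 and 771 CPM in cKO libraries, against 741, 690.5 and 826 CPM in control libraries. Its groups overlapped narrowly and its log2 difference was 0.16 ± 0.14 (SE, 95% interval -0.17 to 0.50). Spag6, the near relative from which Spag6l takes its name, had 0 counts in all 6 libraries. The pair share 2.51% of the 31-base stretches of Spag6 transcripts and 1.86% of those of Spag6l, so few reads would be ambiguous between them. Spag16 followed at 122 TPM, the microtubule-bundling Spef1 at 96.7 TPM, Spef2 at 64.3 TPM and Cfap54 at 42.2 TPM. Cfap54 varied between control libraries, at 228, 207 and 215 CPM in cKO libraries and 239, 109 and 93.5 CPM in control libraries. Spag17, a partner of Spag6 and Spag16, had 17.1 TPM. Cfap221, Cfap46, Cfap74, Cfap99 and Armc2 lay between 6.998 TPM (Armc2) and 22.6 TPM (Cfap221). Hydin, the giant protein whose loss causes hydrocephalus in mice, had 3.23 TPM. Its longest annotated transcript is 15783 bases, and in counts it reached 59.9, 29.2 and 37.8 CPM in cKO libraries and 70.1, 70.9 and 7.79 CPM in control libraries. Control 3 was the lowest of the 6 and the other control libraries the highest. Cfap69 had the smallest p of the group, at 53.5 ± 23.7 CPM in cKO and 92.9 ± 38.7 CPM in control libraries (SD, n = 3 each), with a log2 difference of -0.80 ± 0.49 (SE, 95% interval -1.93 to 0.34). None of the 13 tested passed (0% of all genes did), and 8 were higher and 5 lower, where 50.3% of all genes were higher. The summed level was 846, 949 and 821 TPM in cKO libraries (mean 872 ± 67.5) and 766, 838 and 873 TPM in control libraries (mean 826 ± 54.4, SD, n = 3 each).

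Proteins within the doublet wall gave the most abundant members. Cfap161 (chr7:83774101-83794880, minus strand) was the highest of all 162 at 1344 TPM, rank 77 among all genes. It measured 1448, 1232 and 1349.9 CPM in cKO libraries and 1177, 1272 and 1344 CPM in control libraries, and its log2 difference was 0.09 ± 0.12 (SE, 95% interval -0.20 to 0.37), so the interval excludes a change of 2-fold either way. Cfap126, known as Flattop, had 1141 TPM, with 819, 859 and 848 CPM in cKO libraries and 856, 648 and 684 CPM in control libraries. Its log2 difference was 0.21 ± 0.15 (SE, 95% interval -0.14 to 0.55), and the control 1 value lay inside the cKO range. Cfap20, an inner junction protein, had 611 TPM, Spag8 414 TPM, Cfap45 301 TPM and Cfap52 235 TPM. Efhc2 had 31.8 TPM and Cfap53 24.98 TPM.

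The 5 tektins, filament proteins of the doublet, spanned a wide range. Tekt1 came first at 630.2 TPM (536, 689 and 580.2 in cKO libraries, 649, 722 and 605 in control libraries), and its lowest library was above the highest of Tekt4, which had 124 TPM. Tekt2 and Tekt3 had 20.7 and 16.5 TPM with overlapping ranges, and Tekt5 had 6.21 TPM. Tekt4 lay above Tekt2 in every library. For Tekt5 the cKO libraries held 20.5, 8.78 and 11.2 CPM and the control libraries 0, 8.90 and 0.0639 CPM, with 2 control libraries near 0 and 1 within the cKO range. The log2 difference of Tekt1 was -0.14 ± 0.15 (SE, 95% interval -0.49 to 0.22). Cfap77 had the smallest p of the inner proteins, at 26.2 ± 9.94 CPM in cKO and 50.9 ± 18.3 CPM in control libraries (SD, n = 3 each) and a log2 difference of -0.96 ± 0.56 (SE, 95% interval -2.25 to 0.34). None of the 15 passed (0% of all genes did), 6 were higher and 9 lower, where 50.3% of all genes were higher, and all 15 had overlapping groups, where 9.62% of all genes did not overlap.

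The genes that dock, tether and regulate dynein arms held the only gene with an unadjusted edgeR p under 0.05 among the 64 tested with a role. Cfap44 (chr16:44394796-44482428, plus strand), part of the tether that ties an inner dynein to its doublet, had a low level of 10.9 TPM. It measured 65.2, 119.97 and 76.9 CPM in cKO libraries, against 47.5, 37.3 and 26.4 CPM in control libraries, and every cKO library was above every control library. Its mean was 87.4 ± 28.9 CPM in cKO and 37.1 ± 10.5 CPM in control libraries (SD, n = 3 each). The log2 difference was 1.24 ± 0.41 (SE, 95% interval 0.28 to 2.19), with an edgeR quasi-likelihood p of 0.018 unadjusted and an adjusted p of 0.99999. Its adjusted p over the other methods and settings ranged from 0.118 to 1. Cfap43, the other tether subunit, was at 81.6, 134 and 118 CPM in cKO libraries and 90.5, 139 and 90.2 CPM in control libraries, with overlapping groups. Cfap100, of the modifier of inner arms complex, went the other way, at 89.4, 117 and 101 CPM in cKO libraries and 184, 122 and 124 CPM in control libraries. Its log2 difference was -0.48 ± 0.27 (SE, 95% interval -1.11 to 0.14), with an unadjusted edgeR p of 0.113. Its partner Cfap73 was at 1.09, 16.8 and 12.2 CPM in cKO libraries and 5.56, 13.1 and 13.03 CPM in control libraries, which overlapped. Armc4, an outer arm docking protein, had 52.5 TPM and Cfap70, of the outer arm, 27.4 TPM.

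Of the genes that assemble dynein arms in the cytoplasm, Lrrc6 had 124 TPM, Spag1 8.77 TPM and Lrrc56 8.43 TPM, and none passed the test (0% of all genes did). At the ciliary base, Cfap157 had 52.2 TPM, Iqcb1, a nephrocystin of the transition zone, 33.6 TPM and Lrrc45, of the centriole linker, 23.8 TPM. Armc9, Lrrcc1, Lrrc49 and Iqce lay between 3.82 TPM (Iqce) and 20.1 TPM (Armc9). Iqcb1 was at 63.5, 53.7 and 109.5 CPM in cKO libraries and 57.2, 50.8 and 35.8 CPM in control libraries, with a log2 difference of 0.66 ± 0.42 (SE, 95% interval -0.31 to 1.62) and overlapping groups. Cfap97 and Cfap58, placed in no substructure, had 10.8 and 6.38 TPM. Each was near 0 in 1 control library, with 21.7, 8.03 and 33.2 CPM in cKO and 0.397, 26.8 and 31.6 CPM in control libraries for Cfap97, and 21.5, 11.1 and 26.2 CPM in cKO and 24.2, 24.9 and 0.0639 CPM in control libraries for Cfap58. Cfap36, which binds the small GTPase ARL3, had 236 TPM. Its values were 342, 330.2 and 336 CPM in cKO libraries, against 316, 249.6 and 212 CPM in control libraries. All cKO libraries were above all control libraries, with control 1 close to the cKO range, and the log2 difference was 0.37 ± 0.20 (SE, 95% interval -0.08 to 0.83) with an unadjusted edgeR p of 0.0925.

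What the promoters of these genes share was read from their sequences. RFX transcription factors bind the X-box, and with the forkhead factor FOXJ1 they drive motile cilia genes. Foxj1 itself had 13.9 TPM here. Promoter windows from RefSeq (GRCm38.p6, 250 bases before to 50 after the start) were found for 124 of the 162 genes. The windows below show, in lower case and 5′ to 3′ on the gene's strand, matches in capitals of the X-box spelled as GT, 2 free bases, CC, 3 free bases, G, 1 free base and AAC, of GTTGCC, a spelling of its left part (the X-box core), which can overlap it, and of the forkhead spelling TGTTTAC, each on either strand. They are shown because Spag6l and Spag6 contrast a strongly measured gene with a relative at 0 counts, Cfap161 is the most abundant member, Cfap45 and Iqca are abundant genes with a full X-box, and Cfap44 has the lowest p among axonemal genes. Spag6l lies at chr16:16829314-16829613 (minus strand), Spag6 at chr2:18698772-18699071 (plus strand), Cfap161 at chr7:83794790-83795089 (minus strand), Cfap45 at chr1:172520880-172521179 (plus strand), Iqca at chr1:90153387-90153686 (minus strand) and Cfap44 at chr16:44394549-44394848 (plus strand).
Spag6l: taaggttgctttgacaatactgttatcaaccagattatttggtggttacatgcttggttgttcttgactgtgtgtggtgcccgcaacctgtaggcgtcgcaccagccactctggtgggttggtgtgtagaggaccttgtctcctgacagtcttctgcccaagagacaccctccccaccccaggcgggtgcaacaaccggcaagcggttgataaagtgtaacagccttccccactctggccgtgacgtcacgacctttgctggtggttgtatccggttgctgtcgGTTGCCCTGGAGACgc
Spag6: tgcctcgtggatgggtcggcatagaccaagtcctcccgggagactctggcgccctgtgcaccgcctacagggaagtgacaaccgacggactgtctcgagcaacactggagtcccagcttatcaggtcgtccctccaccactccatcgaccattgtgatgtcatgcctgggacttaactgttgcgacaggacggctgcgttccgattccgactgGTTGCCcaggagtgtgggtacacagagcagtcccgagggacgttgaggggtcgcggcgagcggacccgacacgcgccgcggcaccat
Cfap161: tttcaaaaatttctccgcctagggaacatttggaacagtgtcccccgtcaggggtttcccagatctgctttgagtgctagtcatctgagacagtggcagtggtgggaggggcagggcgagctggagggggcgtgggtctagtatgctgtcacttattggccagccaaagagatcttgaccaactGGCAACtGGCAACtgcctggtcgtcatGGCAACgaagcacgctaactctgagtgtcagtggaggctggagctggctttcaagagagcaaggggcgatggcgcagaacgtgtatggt
Cfap45: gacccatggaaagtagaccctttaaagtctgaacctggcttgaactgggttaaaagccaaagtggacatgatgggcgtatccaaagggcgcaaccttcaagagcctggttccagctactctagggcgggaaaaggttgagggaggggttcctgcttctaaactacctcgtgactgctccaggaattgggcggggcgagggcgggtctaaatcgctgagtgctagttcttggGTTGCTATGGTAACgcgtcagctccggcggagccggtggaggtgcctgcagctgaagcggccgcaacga
Iqca: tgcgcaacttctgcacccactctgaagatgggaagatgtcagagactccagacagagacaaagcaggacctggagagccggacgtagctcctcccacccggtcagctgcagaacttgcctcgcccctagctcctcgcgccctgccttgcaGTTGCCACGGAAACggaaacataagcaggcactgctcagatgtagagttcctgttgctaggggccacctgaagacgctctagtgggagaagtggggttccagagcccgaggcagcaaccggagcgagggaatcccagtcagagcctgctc
Cfap44: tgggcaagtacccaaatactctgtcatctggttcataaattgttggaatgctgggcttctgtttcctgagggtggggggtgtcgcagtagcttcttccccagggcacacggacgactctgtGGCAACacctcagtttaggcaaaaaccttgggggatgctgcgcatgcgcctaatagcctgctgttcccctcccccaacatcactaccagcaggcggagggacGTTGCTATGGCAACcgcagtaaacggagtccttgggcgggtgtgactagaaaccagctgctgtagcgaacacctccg

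A full X-box was present in 10 of 50 genes with a role (20%) and in 5 of 74 others (6.76%), against 673 of 27025 genes in the RefSeq table (2.49%). The core GTTGCC was found for 24 of the 50 (48.0%), 14 of the 74 (18.9%) and 14.1% of all genes. The share for all genes was also higher among expressed genes, so levels were set side by side. At 50 TPM or more, 6 of 33 genes of these names (18.2%) had an X-box, against 5.68% of all genes at that level, and under 1 TPM 1 of 36 (2.78%), against 1.64%. For the core, the shares at 50 TPM or more were 48.5% in genes of these names and 18.4% in all genes. The forkhead spelling was at 6.0% in genes with a role and 4.05% in all genes. Under a stricter spelling, GTTGCC, 2 free bases, GG, 1 free base and AAC, 1 of the 124 matched (0.806%), against 0.355% of all genes, so the count depends on the letters allowed.

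In the sequences above, Spag6l has its X-box with the first base at position 34 counted from 0 at the start, Cfap45 at -19, Cfap44 at -27 and Iqca at -100. Cfap161 has no full X-box but 3 copies of the core on the reverse strand, at -66, -59 and -39. Spag6, at 0 counts here, has 1 core and no full X-box. Hydin has an X-box at -21 and only 3.23 TPM, and Iqch one at -14 with 3.58 TPM, so a match did not go with a high level in every gene. A match is a description of letters and not of binding.

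**Figure D4:**
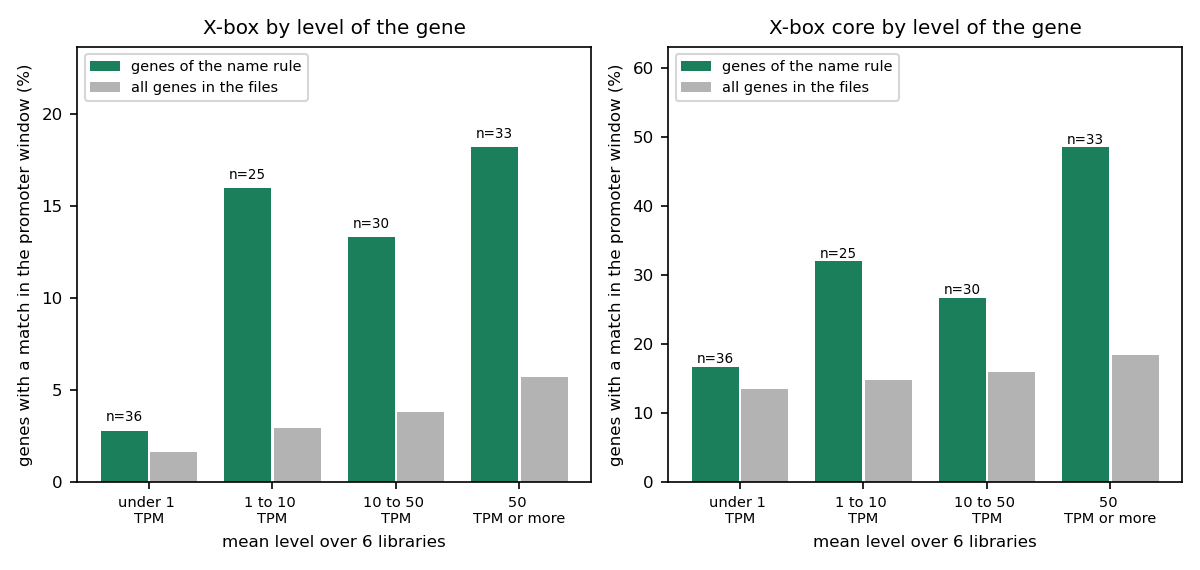
Share of genes with a match in the promoter window, in percent, by mean level over the 6 libraries in TPM, for the full X-box (left) and its core (right), with genes of these names in green (number above the bar) and all genes of the files in grey. The green bars are higher than the grey at every level, from 2.78% against 1.64% under 1 TPM to 18.2% against 5.68% at 50 TPM or more for the X-box.

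The 96 genes not assigned an axonemal role were mostly low, with 44 under 1 TPM, yet 3 exceeded 200 TPM. Lrrc51 stood at 999 TPM, rank 3 of the 162, with 952, 892 and 1164 TPM in cKO libraries and 1189, 901 and 896 TPM in control libraries, which overlapped. Lrrc74b had 231 TPM, Spag7 204, Lrrc34 187, Iqck 185, Iqcc 150.04, Lrrc46 144 and Armc3 86.4 TPM. Of the 96, 30 were at 0 in every library, among them Spag11a, Spag11b, Iqcf1, Iqcf3, Iqcf4, Iqcf5 and Iqcf6. Lrrc4 and Lrrc7, of neuronal synapses, were near 0, at 0.00421 and 0.00197 TPM.

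The other genes with an unadjusted p under 0.05 belong here. Lrrc57, of unknown role, was at 145, 194 and 119 CPM in cKO libraries, against 67.5, 96.1 and 115 CPM in control libraries, with a log2 difference of 0.72 ± 0.31 (SE, 95% interval 0.01 to 1.43). Lrrc43 was at 91.5, 99.3 and 102 CPM in cKO libraries and 42.6, 77.1 and 51.5 CPM in control libraries, with a log2 difference of 0.77 ± 0.33 (SE, 95% interval 0.01 to 1.54). Lrrc59, a ribosome-binding protein of the endoplasmic reticulum, was at 107, 62.9 and 80.8 CPM in cKO libraries and 54.8, 30.1 and 11.1 CPM in control libraries, with a log2 difference of 1.38 ± 0.59 (SE, 95% interval 0.01 to 2.76). In all 3 the groups did not overlap, and the interval's lower end was 0.01. Their unadjusted edgeR p-values were 0.0486, 0.0487 and 0.049, each with an adjusted p of 0.99999. Higher in cKO without overlap, but with larger p-values, were also Lrrc16a, a regulator of actin capping, and Lrrc3. Lrrc16a was at 23.1, 20.01 and 31.1 CPM in cKO libraries and 0.0662, 1.46 and 15.2 CPM in control libraries. Lower in cKO without overlap were Lrrc2, Lrrc61, Lrrc1, Lrrc29 and Armc5. Armc5, a tumour suppressor of the adrenal cortex, was at 0, 1.12 and 1.10 CPM in cKO libraries and 24.9, 5.40 and 7.79 CPM in control libraries, with a log2 difference of -4.09 ± 2.19 (SE, 95% interval -9.17 to 0.99). Lrrc29 was near 0 in cKO libraries, at 0, 0.521 and 0 CPM, against 9.66, 1.39 and 11.3 CPM in control libraries. It entered the test only through the control libraries, so its groups had to lie apart. Lrrc2 was at 10.8, 28.3 and 27.9 CPM in cKO libraries and 39.1, 41.2 and 50.5 CPM in control libraries, with a log2 difference of -0.96 ± 0.60 (SE, 95% interval -2.35 to 0.42). Lrrc41 was at 22.5, 21.3 and 9.62 CPM in cKO libraries and 42.7, 58.5 and 19.9 CPM in control libraries, which overlapped, with a log2 difference of -1.18 ± 0.70 (SE, 95% interval -2.79 to 0.43).

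The Lrrc8 genes encode the volume-regulated anion channel, with Lrrc8a as the subunit that every channel needs and the others setting what it passes. Lrrc8a had 18.5 TPM, Lrrc8c 7.66, Lrrc8b 3.71, Lrrc8d 1.46 and Lrrc8e 0.00371 TPM. Lrrc8d (chr5:105699969-105832436, plus strand) had 149, 89 and 160 estimated counts in cKO libraries, against 0, 0 and 0 in control libraries. In CPM these were 10.8, 6.62 and 11.8 in cKO libraries. Their mean of 9.725 CPM was 47.9-fold a floor of 0.203 CPM, the mean over control libraries at 3 counts each. The gene entered the test only through the cKO libraries. Having entered that way it had to differ, so no p is given for it. The pattern was not unique: 34 genes had at most 3 counts in every control and at least 50 in every cKO library, and 19 genes had the reverse, none of them among the 162. Lrrc8d shares no stretch of 31 bases with Lrrc8b. Lrrc8dos, an RNA annotated on the opposite strand beside it, had 4.28, 0 and 0 CPM in cKO libraries and 0 in all control libraries, and no source used here says whether reads were assigned by strand. Lrrc8a was at 65.7, 43.6 and 55.6 CPM in cKO libraries and 35.1, 100.1 and 99.8 CPM in control libraries, which overlapped.

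How closely the libraries repeat each other sets what can be read from these genes. Of the 40 genes of these names with a mean of at least 1600 counts, the median coefficient of variation over the 6 libraries was 21%, against 21.5% for all genes of that depth. Between 400 and 800 counts, 5 of 23 (21.7%) had a library at 3 counts or fewer, against 11.4% of all genes. Over all depths this held for 27 of the 114 tested (23.7%) and 7 of the 64 with a role (10.9%), against 36.9% of all genes.

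**Figure D5:**
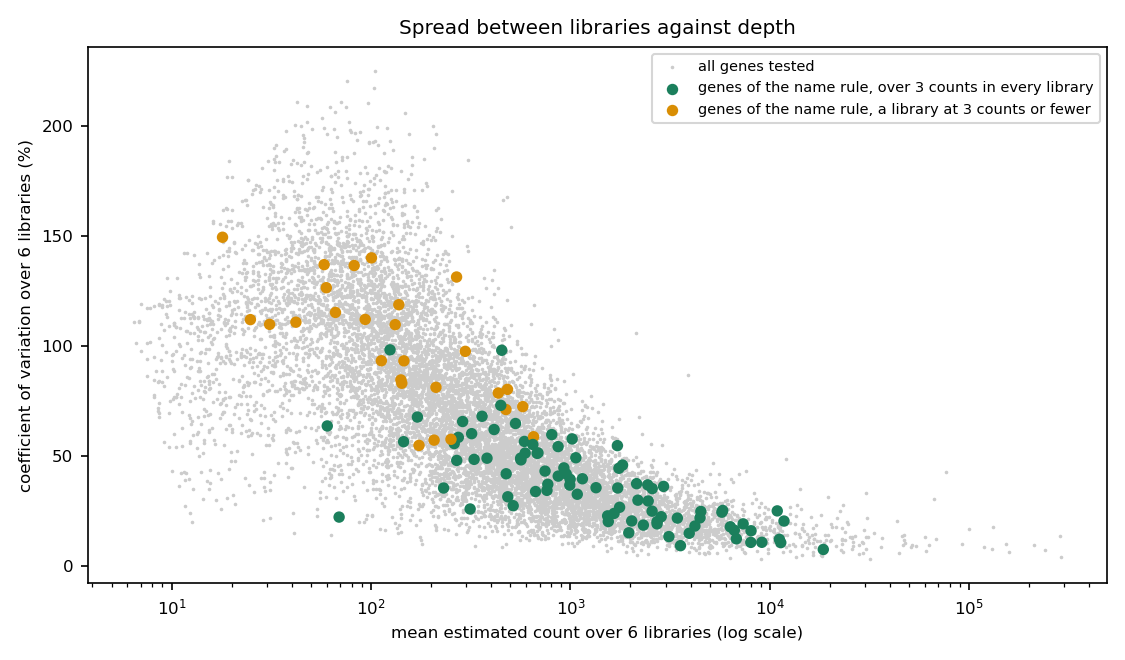
Coefficient of variation over the 6 libraries, in percent, against the mean estimated count on a log axis, for all genes tested (grey) and the 114 genes of these names, in green where every library was over 3 counts and in orange where a library was at 3 or fewer. Genes over 1600 counts lie mostly under 50%, while the orange genes reach over 100%.

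Axonemal genes outside these names were read from a list of 33 partners, all of which were tested. None passed an adjusted p of 0.05 in edgeR or limma-voom (0% of all genes did) or in DESeq2 (1.63% of all genes did). In cKO 16 were higher and 17 lower, where 50.3% of all genes were higher, and the median log2 difference was -0.0256. Nme5, of the spoke, had 1482 TPM, Tppp3, a tubulin-binding protein, 1429 TPM, and Enkur, a doublet inner protein, 803 TPM. At an unadjusted edgeR p under 0.05 there were 2 of 33 (6.06%), both higher, against 2.75% of all genes in either direction and 1.43% higher. Ccdc39, which with Ccdc40 forms the ruler that sets the axonemal repeat, was at 250.03 ± 64.1 CPM in cKO and 134 ± 41.9 CPM in control libraries, with the groups apart. Ak8, an adenylate kinase, was at 328 ± 94.4 CPM in cKO and 212 ± 36.7 CPM in control libraries (SD, n = 3 each). Ccdc40 was at 40.9 ± 3.34 CPM in cKO and 54.9 ± 28.5 CPM in control libraries, which overlapped. The groups did not overlap for 6 of the 33 (18.2%), with Ak8, Ccdc103, Ccdc39 and Gas8 above and Nme7 and Dnaaf2 below, where all genes gave the 9.62% stated above. Dnaaf2, a dynein preassembly factor, was at 1.09 ± 1.76 CPM in cKO and 24.2 ± 11.01 CPM in control libraries. Gas8 (Drc4) and Ccdc65 (Drc2), which complete the core of the regulatory complex, had 57.1 and 171 TPM.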

How the data were processed

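RNA was measured in 6 samples of sorted ependymal cells. Per the submitters' processing notes, CASAVA 1.8, cutadapt 1.11 and kallisto 0.42.5 were used. The build, annotation and strandedness were not given in the sources used here. Per the file headers, the deposited files hold an estimated count and a TPM value per gene. Estimated counts were rounded, filtered by filterByExpr (11574 of 47643 genes kept), scaled by TMM and tested with the edgeR 4.0.16 quasi-likelihood test (robust, R 4.3.3), modelling genotype alone. Benjamini-Hochberg adjustment ran over all genes tested, with calls at 0.05. DESeq2 1.42.0, limma-voom and limma 3.58.1 on log2 TPM, other scalings, no filter, a replicate block and each library left out were alternatives. Coordinates are from GENCODE M21 (GRCm38), where 99.1% of gene identifiers and all 162 genes studied matched. The files of all 6 samples were used.

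The genes, the assignment of 66 of them to substructures, the partner list, the marker lists and the promoter spellings were chosen with earlier results of these data known. Genes named were the 12 with the highest mean TPM, the 12 with the smallest p at a mean of at least 5 CPM, up to 3 per substructure by level and 1 by p, and the Spag6 and Rsph3 pairs. Others were chosen after their values were seen. One gene of the list is counted in the totals but not reported on its own here. The common dispersion of 1.28 amounts to a coefficient of variation of 1.13.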

Additional observations from a re-analysis of the deposited data

How the results depend on the processing

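The number of genes called was 0 with edgeR and 198 with DESeq2. Limma called 60 on log2(TPM + 0.1) and 23 on log2(TPM + 1) without a filter. The cause of these differences was not tested. Of the 162 genes, DESeq2 and log2(TPM + 0.1) called 1 each, Lrrc8d both times. Lrrc8d had counts only in cKO libraries, so these calls are not read as a result. Leaving out a library, the median log2 difference of the 114 genes ranged from -0.0001942 to 0.1089 (0.0706 with all 6, the lowest without cKO 3), and differences near 0 changed sign: Cfap45 from -0.1322 to 0.2059, Cfap20 from -0.1317 to 0.1551, Rsph1 from -0.1726 to 0.2866, Lrrc48 from -0.2453 to 0.138, Lrrc51 from -0.1279 to 0.2478, Spag8 from -0.2305 to 0.01689 and Rsph3a from -0.81 to 0.05241. Cfap45 also turned to 0.005831 with voom, 0.01186 on log2(TPM + 1) with or without a filter, 0.01199 on log2(TPM + 0.1) and 0.01133 with the replicate block. The replicate block called 0 genes. Same-numbered libraries correlated by 0.008, 0.0312 and 0.0152 in their deviations from the group means. Values this small cannot tell whether the numbers pair the samples. Each cKO library correlated best with its own number. The Ccn1 difference kept its direction in 15 of 15 fits (-2.50 to -1.97). Low counts limit genes under about 800 counts. Under about 400 counts, genes often drop to 3 or fewer in a library. Between 400 and 800 counts, 5 of 23 genes of these names did (21.7%), against 11.4% of all genes.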

Other observations

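For some genes the estimated counts and the TPM values ordered the libraries differently. Cfap61 had 15.6, 42.0 and 41.5 CPM in cKO libraries and 43.5, 32.5 and 29.5 CPM in control libraries, but 29.6, 32.8 and 14.5 TPM in cKO libraries and 15.1, 11.4 and 29.1 TPM in control libraries. The library with the fewest counts of the gene, cKO 1, thus had the second-highest TPM. Which transcripts of Cfap61 carried the reads was not analysed here.

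Among the 39 axonemal or ciliary genes with a mean of at least 800 counts, control 1 was the lowest library for 12 (30.8%), against 21.5% of all 3186 genes of that depth. It was the highest library for 8 of the 39 (20.5%), against 27.3% of those genes. Per cKO library, the share of the 39 in which it was lowest ran from 10.3% to 12.8%, against 13% to 16.9% of all genes of that depth. Control 1 was not low for every axonemal list. The 33 partners summed to 9885 TPM in control 1, against 8753 to 9572 TPM in the other libraries. Ependymal markers were also highest there, at 29211 TPM, against 24585 to 25860 TPM.

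Marker lists not given above were low. Neuroblast and transit-amplifying markers summed to 3.84 ± 0.836 TPM in cKO and 15.1 ± 8.96 TPM in control libraries (SD, n = 3 each). Neuron markers came to 4.58 ± 7.12 TPM in cKO and 1.53 ± 1.33 TPM in control libraries, oligodendrocyte lineage markers to 46.4 ± 14 TPM in cKO and 56.7 ± 46.2 TPM in control libraries, and microglial markers to 15.99 ± 8.24 TPM in cKO and 11.8 ± 4.39 TPM in control libraries. Endothelial markers were under 0.02 TPM in every library, with 4 of 5 at 0 throughout, and mural markers summed to 0.709 ± 1.2 TPM in cKO and 0 TPM in control libraries.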
